A study of Mus musculus with 24 samples.

Results

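Acute phase proteins are secreted defence proteins whose synthesis rises sharply during inflammation. The genes described here are 8 that code for such proteins: serum amyloid A3 (Saa3), haptoglobin (Hp), lipocalin 2 (Lcn2), the serine protease inhibitor Serpina3n, the inter-alpha-trypsin inhibitor heavy chain Itih4, orosomucoid 1 (Orm1), pentraxin 3 (Ptx3) and the secretory leukocyte peptidase inhibitor Slpi. They were chosen by name, as the probe sets whose gene symbol in the array's annotation is one of these 8, out of 12393 genes with a single symbol on the array. Each is read by 1 probe set, and 6 of the 8 passed the filter on low signal and were tested among 8008 genes. Orm1 and Ptx3 did not pass.

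The study followed lung transcripts of male mice through ozone exposure in a pair of C3H strains that differ in Tlr4, the receptor for bacterial endotoxin. C3H/HeOuJ (OuJ) mice carry a sufficient Tlr4 and C3H/HeJ (HeJ) mice a dominant negative one. Each strain was exposed to air or to ozone for 6, 24 or 48 h, with 3 mice in each of the 8 groups. Total RNA of the left lung lobe of each mouse was hybridised to 1 Affymetrix mouse expression array, 24 arrays in all. The ozone concentration and the age of the mice are not stated in these sources. The HeJ allele alters the Tlr4 protein, so the arrays do not check the strain labels.

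Most of these proteins are made by the liver and enter the blood in infection or injury, driven by interleukin 6 and interleukin 1 through STAT3, C/EBP and NF-kB transcription factors. Several are also made locally: Saa3 is the serum amyloid A form produced mainly outside the liver, Lcn2 and Slpi are secreted by airway epithelium and stored in neutrophil granules, and haptoglobin is made in the lung itself. Their tasks differ. Haptoglobin binds free haemoglobin, lipocalin 2 withholds bacterial iron carriers, Serpina3n and Slpi inhibit leukocyte proteases, Itih4 belongs to a family that binds hyaluronan, and pentraxin 3 tags microbes for complement.

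The promoters of 4 members that rose together after 24 and 48 h of ozone are shown first, to set out the sequence in front of the genes that changed most. The windows run from 250 bases before to 50 bases after the gene start, 5′ to 3′ on the strand of the gene, from RefSeq (GRCm38.p6): Saa3 on the minus strand at chr7:46715627-46715926, Lcn2 on the minus strand at chr2:32387690-32387989, Serpina3n on the plus strand at chr12:104406458-104406757 and Itih4 on the plus strand at chr14:30886226-30886525. Capitals mark the letters that match a searched motif.
Saa3: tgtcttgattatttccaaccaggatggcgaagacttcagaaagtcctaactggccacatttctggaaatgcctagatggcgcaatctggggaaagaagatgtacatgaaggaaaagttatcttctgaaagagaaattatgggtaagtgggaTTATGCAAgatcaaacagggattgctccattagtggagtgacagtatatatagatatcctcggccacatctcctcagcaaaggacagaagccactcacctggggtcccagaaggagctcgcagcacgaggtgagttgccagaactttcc
Lcn2: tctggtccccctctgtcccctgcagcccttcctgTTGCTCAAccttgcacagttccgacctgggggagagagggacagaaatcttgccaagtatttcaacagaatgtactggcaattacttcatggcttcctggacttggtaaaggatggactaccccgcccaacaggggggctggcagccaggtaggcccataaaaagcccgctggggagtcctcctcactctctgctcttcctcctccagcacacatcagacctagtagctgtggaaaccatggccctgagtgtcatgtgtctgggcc
Serpina3n: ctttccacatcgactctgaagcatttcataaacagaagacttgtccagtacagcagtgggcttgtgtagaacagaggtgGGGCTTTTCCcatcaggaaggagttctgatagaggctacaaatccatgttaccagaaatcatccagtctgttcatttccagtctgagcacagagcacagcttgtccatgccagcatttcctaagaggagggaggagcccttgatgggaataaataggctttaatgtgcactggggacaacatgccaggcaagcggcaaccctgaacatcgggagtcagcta
Itih4: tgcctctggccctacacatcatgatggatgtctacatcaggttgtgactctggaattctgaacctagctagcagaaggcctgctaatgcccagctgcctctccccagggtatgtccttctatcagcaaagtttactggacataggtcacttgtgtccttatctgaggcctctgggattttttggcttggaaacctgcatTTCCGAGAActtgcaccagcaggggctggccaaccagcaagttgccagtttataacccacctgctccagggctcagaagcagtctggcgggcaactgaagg

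Both strands were searched for the NF-kB motif (GGG, any pair of bases, TT, any base, CC), TTGCNNAA (C/EBP) and TTCNNNGAA (STAT), which occur in 4.79%, 10.8% and 8.3% of 32851 promoter windows of the same length. The Saa3 window held a C/EBP match on its opposite strand, 99 bases before the start, and the Lcn2 window held one 216 bases before the start. The Serpina3n window held an NF-kB match 171 bases before the start, and the Itih4 window a STAT match 51 bases before it. These 4 windows hold no motif common to all. Promoter windows were found for 6 of the 8 members, and Hp, which also rose, and Orm1 are named only. Of the other members with a window, Slpi held a C/EBP match 241 bases before its start, and Ptx3 held a C/EBP match 57 bases before it and an NF-kB match at it. The matches did not overlap one another. A match describes letters only and was not tested as a binding site.

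The values are signal intensities on a linear scale, and differences were computed as log2(signal + 16), which understates changes of dim genes. Array medians of the signal lay between 200.1 and 229.3, and replicate arrays correlated at 0.966 to 0.979 across probe sets. Lung markers were bright, with mean Sftpc signals (surfactant protein C, alveolar type 2 cells) of 32169 and 39025 in air-exposed OuJ and HeJ mice and mean Scgb1a1 signals (club cell secretory protein) of 28900 and 34112. Sample codes in the labels begin with 3 for all air and 6 h mice, with 10 for OuJ mice at 24 and 48 h and with 13 for HeJ mice at these times, and 4 codes carry a suffix (HeJ air replicate 2, HeJ 6 h replicate 2, HeJ 24 h replicates 1 and 3). Exposure for 24 or 48 h and code series therefore cannot be told apart in comparisons with air, nor can strain and code series at these times. The ratio of 5′ to 3′ Gapdh control signals averaged 0.558 to 0.753 in the HeJ groups and 0.843 to 0.894 in the OuJ groups, and its part in any strain difference was not tested. In whole lung, a lower or higher signal cannot be told apart from fewer or more cells of a producing type.

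Saa3 showed the largest changes among the tested members at 24 and 48 h. Its signals were 119, 156 and 123 in OuJ mice in air and 166, 152 and 92.6 in HeJ mice in air. After 6 h they were 146, 174 and 344 in OuJ mice and 83.5, 206 and 218 in HeJ mice. Each 6 h group overlapped the air group of its strain. The 6 h signals of 174 and 344 in OuJ mice and 206 and 218 in HeJ mice lay above every mouse in air. That of 146 in OuJ mice lay within the OuJ air range, and that of 83.5 in HeJ mice lay below the HeJ air range. After 24 h the signals were 934, 832 and 1156 in OuJ mice and 853, 1135.5 and 612 in HeJ mice. After 48 h they were 831, 1254 and 786 in OuJ mice but 2609, 3153 and 2433.5 in HeJ mice. Every mouse at 24 and 48 h exceeded every mouse in air, and the 3 HeJ mice at 48 h lay above all others.

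By group means, Saa3 ran from 132 ± 20.3 in OuJ air and 137 ± 39.2 in HeJ air through 169 ± 74.3 (HeJ 6 h) and 222 ± 107 (OuJ 6 h) to 867 ± 262 (HeJ 24 h), 957 ± 258 (OuJ 48 h), 974 ± 166 (OuJ 24 h) and 2732 ± 375 (HeJ 48 h; SD, n = 3 throughout). Neighbours within the first 4 groups overlapped, as did the next 3. Its signal exceeded 218.3, the level of the filter, on 13 of the 24 arrays, all 12 from the 24 and 48 h groups and 1 from OuJ mice at 6 h, so Saa3 entered the test through the groups where it was high.

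In limma's linear model over all 24 arrays, Saa3 rose by 2.73 ± 0.30 (SE) at 24 h in OuJ mice (6.65-fold; adjusted p = 8e-06) and by 2.52 ± 0.30 in HeJ mice (5.73-fold; adjusted p = 2.14e-05). At 48 h it rose by 2.69 ± 0.30 in OuJ mice (adjusted p = 5.91e-06 in limma) and by 4.19 ± 0.30 in HeJ mice (18.3-fold; adjusted p = 4.83e-09). The 6 h changes of 0.60 ± 0.30 in OuJ mice (limma adjusted p = 0.502) and 0.21 ± 0.30 in HeJ mice (limma adjusted p = 0.889) did not pass. All adjusted p-values are limma's with Benjamini-Hochberg adjustment over the 8008 genes, and a change passed under 0.05.

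**Figure D1:**
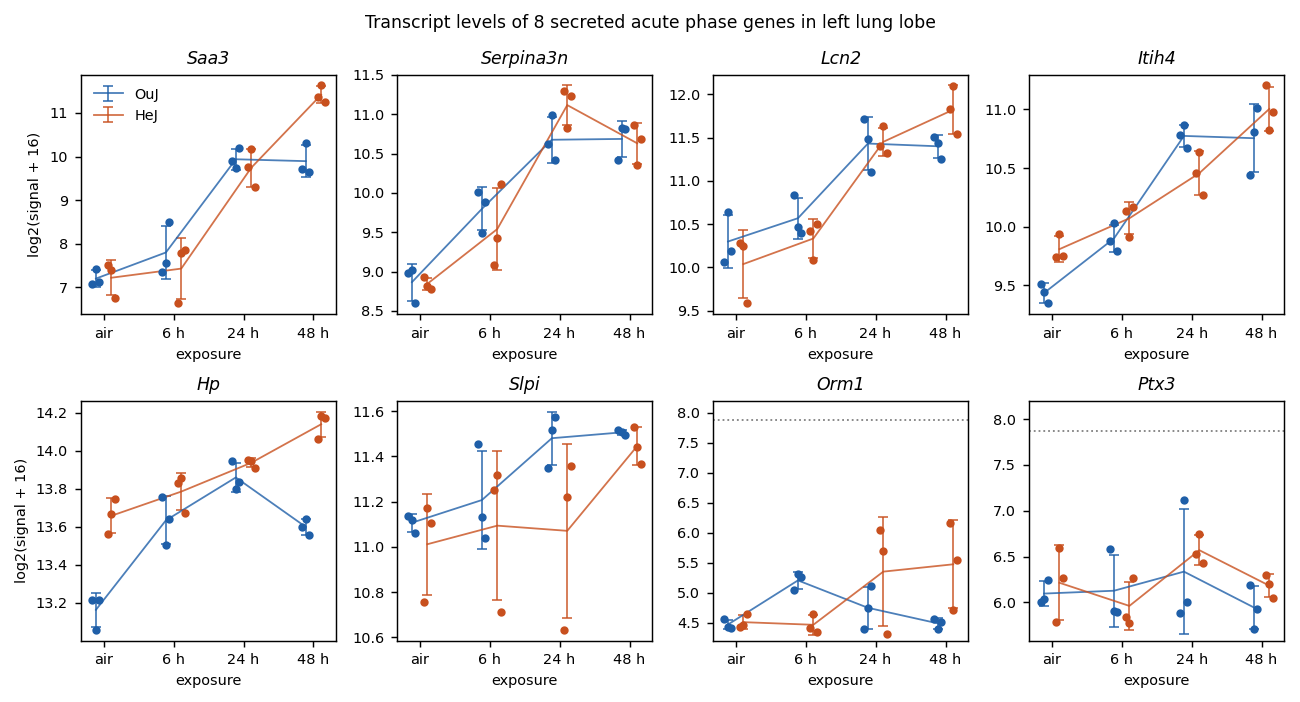
Levels of the 8 genes as log2(signal + 16) by exposure (air, 6, 24 and 48 h of ozone), with 1 point per mouse, lines through the group means and bars of 1 SD (n = 3), OuJ in blue and HeJ in orange. Saa3 separates at 48 h, where the HeJ mean is 2732 in signal and the OuJ mean 957, and the dotted line in the Orm1 and Ptx3 panels is the filter level of 218.3, which no array of either gene reached.

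Haptoglobin was bright on every array and changed in smaller steps with little spread. In air its signals were 9485, 8512 and 9489 in OuJ mice and 12063, 12979 and 13713 in HeJ mice. After 6 h they were 13801, 11589 and 12769 in OuJ mice and 14542, 14785 and 13023 in HeJ mice. All OuJ mice at 6 h were above all OuJ mice in air, while the HeJ groups overlapped. After 24 h the signals were 15752, 14226 and 14587 in OuJ mice and 15841, 15755 and 15377 in HeJ mice. After 48 h they were 12373, 12769 and 12030.4 in OuJ mice and 17099, 18556 and 18451 in HeJ mice. From 24 to 48 h every OuJ mouse was lower and every HeJ mouse higher, and the order of the group means ran from OuJ air (9162 ± 563) to HeJ 48 h (18035 ± 813; SD, n = 3).

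Haptoglobin was the member that rose at 6 h in OuJ mice, by 0.47 ± 0.08 (limma adjusted p = 0.00632). It then rose against air by 0.70 ± 0.08 at 24 h (limma adjusted p = 1.03e-05) and by 0.44 ± 0.08 at 48 h (limma adjusted p = 0.00148). In HeJ mice it rose by 0.28 ± 0.08 at 24 h (limma adjusted p = 0.0362) and by 0.48 ± 0.08 at 48 h (limma adjusted p = 0.00043), while its 6 h change was 0.13 ± 0.08 (limma adjusted p = 0.671). The 6 h call did not hold without OuJ air replicate 2 (0.42, limma adjusted p = 0.0787), without OuJ 6 h replicate 1 (0.41, adjusted p = 0.127) or without OuJ 6 h replicate 3 (0.47, adjusted p = 0.0552). The HeJ 24 h call was lost in 10 of 17 alternative settings, over which the change ranged from 0.23 to 0.32 and limma's adjusted p from 0.00593 to 0.387, and it was lost without HeJ air replicate 1 (0.23, adjusted p = 0.139) or 2 (0.28, adjusted p = 0.0798) and without each HeJ 24 h array (0.27, 0.27 and 0.29, adjusted p = 0.0986, 0.0693 and 0.0758).

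Lipocalin 2, the iron carrier binding protein, had signals of 1054, 1581 and 1154 in OuJ air and 1233, 1198 and 752 in HeJ air. At 6 h they were 1817, 1404 and 1331 in OuJ mice and 1352, 1067 and 1436 in HeJ mice, overlapping air in both strains. At 24 h they were 3336, 2839 and 2189 in OuJ mice and 2693, 3155 and 2544 in HeJ mice. At 48 h they were 2904, 2762 and 2420.4 in OuJ mice and 3633, 4372 and 2958 in HeJ mice. All mice at 24 and 48 h lay above all mice in air, and at 48 h all HeJ mice lay above all OuJ mice. Lcn2 rose by 1.13 ± 0.19 and 1.10 ± 0.19 at 24 and 48 h in OuJ mice (limma adjusted p = 0.000759 and 0.001) and by 1.41 ± 0.19 and 1.78 ± 0.19 in HeJ mice (limma adjusted p = 9.76e-05 and 4.87e-06). Its 6 h changes were 0.27 ± 0.19 and 0.30 ± 0.19 and did not pass (limma adjusted p = 0.677 and 0.689).

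Neutrophil markers were not higher where Lcn2 rose. Of 11 neutrophil genes on the array 6 were tested in limma, and 0 rose at 24 or 48 h in either strain (0 at an unadjusted p under 0.05). The calprotectin subunits S100a8 and S100a9 changed by -2.04 ± 0.32 and -2.01 ± 0.30 at 24 h in OuJ mice (limma adjusted p = 0.000318 and 0.000218). The summed signal of the 11 genes was 3534 to 4390.2 in OuJ air, 1852 to 2176 at 24 h and 2169 to 2890 at 48 h, and in HeJ mice it was 3070.0 to 4267 in air, 2536 to 3180.0 at 24 h and 2071 to 3853 at 48 h.

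Serpina3n, an inhibitor of leukocyte serine proteases, had signals of 489, 504 and 371 in OuJ air and 473, 435 and 424 in HeJ air. At 6 h they were 1019, 703 and 930.1 in OuJ mice and 528, 671 and 1089.9 in HeJ mice. Every mouse at 6 h was above every mouse of its strain in air. At 24 h they were 1553, 2017 and 1353 in OuJ mice and 2484, 1803 and 2384 in HeJ mice. At 48 h they were 1356, 1794 and 1782 in OuJ mice and 1840.3, 1289 and 1626 in HeJ mice. In OuJ mice the 24 and 48 h levels overlapped, and in HeJ mice the highest mean, 2224 ± 368 (SD, n = 3), was at 24 h.

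Serpina3n rose at 24 and 48 h by 1.81 ± 0.21 and 1.82 ± 0.21 in OuJ mice (limma adjusted p = 1.09e-05 and 8.08e-06) and by 2.27 ± 0.21 and 1.79 ± 0.21 in HeJ mice (limma adjusted p = 4.93e-07 and 8.31e-06). At 6 h it was 0.93 ± 0.21 above air in OuJ mice (limma adjusted p = 0.0549) and 0.70 ± 0.21 above air in HeJ mice (limma adjusted p = 0.314), and neither passed. Without OuJ 6 h replicate 2 the OuJ value became 1.08 and passed (limma adjusted p = 0.0145), and without HeJ 6 h replicate 1 the HeJ value became 0.92 and passed (limma adjusted p = 0.0404). Averaged over the strains, the 6 h change of 0.81 ± 0.15 passed (limma adjusted p = 0.00983), as did that of Hp (0.30 ± 0.06; limma adjusted p = 0.0105).

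Itih4, the heavy chain that is cleaved by plasma kallikrein, had signals of 715, 681 and 635 in OuJ air and 842, 962 and 843 in HeJ air. At 6 h they were 924, 1028 and 872 in OuJ mice and 1107, 949 and 1134 in HeJ mice. At 24 h they were 1743, 1851 and 1617 in OuJ mice but 1390.5, 1580.0 and 1219 in HeJ mice. At 48 h the OuJ signals were 1372, 1779 and 2053 and the HeJ signals 2343, 1801 and 2002. At 24 h all OuJ mice were above all HeJ mice, whereas in air all OuJ mice were below all HeJ mice. Of all tested genes 12.5% were lower on all OuJ arrays in air. The 24 h difference between the strains was larger for Itih4 than for 93.08% of all tested genes. At 48 h the strains overlapped.

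Itih4 rose by 1.34 ± 0.13 and 1.32 ± 0.13 at 24 and 48 h in OuJ mice (limma adjusted p = 1.24e-06 and 9.76e-07) and by 0.65 ± 0.13 and 1.20 ± 0.13 in HeJ mice (limma adjusted p = 0.00374 and 5.18e-06). The 6 h changes were 0.47 ± 0.13 in OuJ mice and 0.26 ± 0.13 in HeJ mice and did not pass (limma adjusted p = 0.125 and 0.568). The difference between the strains' 24 h changes, 0.69 ± 0.19, did not pass either (limma adjusted p = 0.33).

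Slpi, the airway antiprotease, was bright but moved least of the tested members. Its signals in OuJ mice were 2239, 2209 and 2124 in air, 2788, 2226 and 2087 at 6 h, 2595, 2912 and 3038 at 24 h and 2913.5, 2896 and 2871 at 48 h. In HeJ mice they were 1715, 2295 and 2187 in air, 2422.5, 2535 and 1664 at 6 h, 1574, 2369.7 and 2611 at 24 h and 2944, 2764 and 2623 at 48 h. The OuJ mice at 24 and 48 h and the HeJ mice at 48 h lay above their air groups without overlap, while HeJ mice at 24 h spanned the air range. The changes were 0.37 ± 0.16 and 0.40 ± 0.16 at 24 and 48 h in OuJ mice (limma adjusted p = 0.193 and 0.141) and 0.06 ± 0.16 and 0.43 ± 0.16 in HeJ mice (limma adjusted p = 0.88 and 0.0858), and none passed. With only the groups compared in the fit, the 48 h changes passed in OuJ and HeJ mice (limma adjusted p = 0.0134 and 0.0471). Without the arrays whose code carries a suffix the HeJ 48 h change was 0.51. The intervals reached from 0.06 to 0.73 for OuJ at 48 h and from 0.10 to 0.77 for HeJ at 48 h (95%).

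Orm1 and Ptx3 were dim on all 24 arrays. Orm1, a plasma carrier of small molecules, had signals of 3.9 to 55.9, and Ptx3 had signals of 36.5 to 122.8. Within this dim range the Orm1 signals were 7.6, 5.6 and 5.3 in OuJ air against 16.9, 23.8 and 22.3 at 6 h, and 5.6, 5.9 and 8.9 in HeJ air against 55.9, 10.1 and 30.7 at 48 h. Those of Ptx3 overlapped air at every ozone time in both strains. In a limma fit without the filter neither gene passed in any comparison with air. No detection call was used here, so whether these signals exceed background is not known.

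Counted together, 5 of the 6 tested members rose at 24 h in OuJ mice, where 3.16% of all tested genes did, and 5 of 6 rose at 48 h, where 3.7% did. In HeJ mice 5 of 6 rose at 24 h (3.15% of all tested genes) and 5 of 6 at 48 h (5.67%). The 5 were Saa3, Hp, Lcn2, Serpina3n and Itih4 in each case, and no member fell. The members were chosen with earlier results of these data known, and Saa3 passed the filter through the groups where it was high. The shares are therefore given as description and not as a test of the members as a set. At 6 h, 1 member, Hp, rose in OuJ mice (0.0874% of all tested genes; 0 to 2 members with 1 array left out), none in HeJ mice (0.0125%; 1 member, Serpina3n, at an unadjusted p under 0.05 in limma) and 2 with the strains averaged (0.787%). Without the arrays whose code carries a suffix, the strain average at 6 h gave 0 members, with changes of 0.84 for Serpina3n and 0.28 for Hp (limma adjusted p = 0.0511 and 0.0793). The median change of the 6 tested members was 0.47, 1.24 and 1.21 at 6, 24 and 48 h in OuJ mice and 0.24, 1.03 and 1.49 in HeJ mice, against -0.02, -0.03 and -0.02 and -0.02, -0.02 and -0.03 for all tested genes. The members higher on all ozone arrays than on all air arrays were 3, 6 and 6 at 6, 24 and 48 h in OuJ mice, against 7.94%, 11.2% and 12.5% of all tested genes. They were 1, 5 and 6 in HeJ mice, against 5.38%, 10.7% and 13.7%. The comparisons of a strain share its 3 air arrays.

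**Figure D2:**
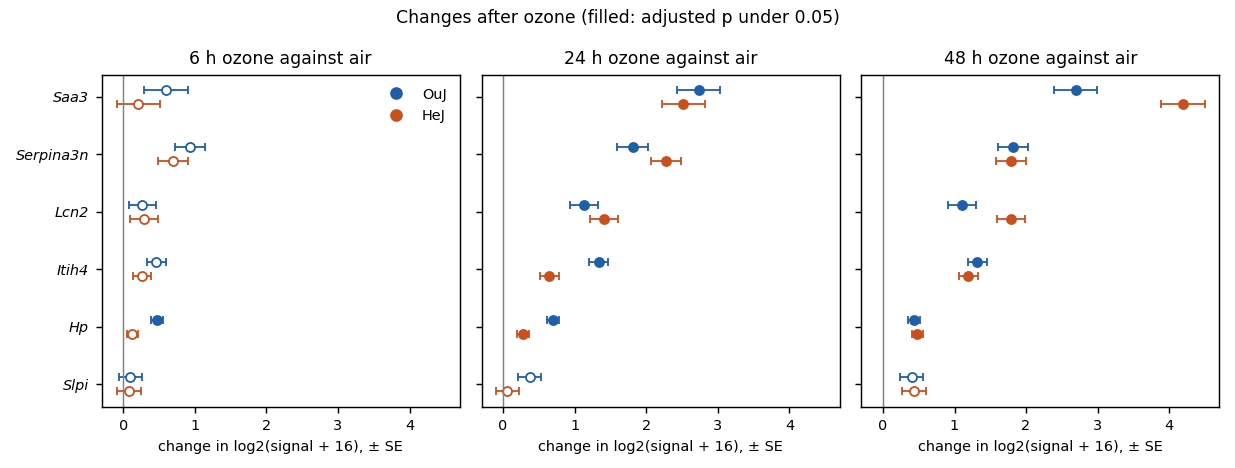
Changes of the 6 tested genes against air at 6, 24 and 48 h of ozone in log2(signal + 16), with bars of 1 SE from the limma fit, OuJ in blue and HeJ in orange, filled where the adjusted p was under 0.05. At 24 and 48 h all points but those of Slpi are filled, and Saa3 reaches 4.19 in HeJ mice at 48 h.

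From 24 to 48 h Saa3 and Itih4 rose in HeJ mice, and no member passed in OuJ mice. In OuJ mice 0 of the 6 tested members rose or fell (0.15% of all tested genes passed), with 1 member, Hp, at an unadjusted p under 0.05 in limma. The change of Saa3 was -0.04 ± 0.30 and that of Hp, lower on all arrays at 48 h, was -0.26 ± 0.08 (95% interval -0.43 to -0.09; limma adjusted p = 0.99 for Saa3 and 0.323 for Hp). Of all tested genes 7.08% had a lower change than Hp. In HeJ mice 2 of 6 rose, where 2.62% of all tested genes did. Saa3 rose by 1.67 ± 0.30 (3.19-fold; limma adjusted p = 0.00353) and Itih4 by 0.55 ± 0.13 (limma adjusted p = 0.0199), and 4 of the 6 were higher on all HeJ arrays at 48 h than at 24 h (12.3% of all tested genes): Saa3, Itih4, Hp (0.20 ± 0.08; adjusted p = 0.145) and Slpi (0.37 ± 0.16; adjusted p = 0.183). Serpina3n had the opposite sign (-0.49 ± 0.21; limma adjusted p = 0.184). Each of these comparisons lies within 1 code series.

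The Itih4 call in HeJ mice depended on single arrays, and the Saa3 call did not. Without the arrays whose code carries a suffix, which leaves 1 HeJ mouse at 24 h that is assumed to vary like the other groups, the Saa3 change was 1.25 (limma adjusted p = 0.481) and the Itih4 change 0.36 (limma adjusted p = 0.668). Itih4 also no longer passed without HeJ 24 h replicate 1 (0.55, limma adjusted p = 0.0767) or 3 (0.45, adjusted p = 0.108) and without HeJ 48 h replicate 1 (0.45, adjusted p = 0.0858) or 3 (0.56, adjusted p = 0.0528). Saa3 passed when any single HeJ 24 or 48 h array was left out.

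The strains were then compared at each exposure. In air 1 of the 6 tested members was lower in OuJ than in HeJ mice, where 0.387% of all tested genes were. That was Hp, with a difference of -0.49 ± 0.08 (limma adjusted p = 0.0027; 0.0553 with only the air arrays fitted). Itih4 was also lower on all OuJ arrays, so that 2 members did not overlap (12.5% of all tested genes), with a difference of -0.37 ± 0.13 that did not pass (limma adjusted p = 0.173), and Saa3 differed by -0.02 ± 0.30 (95% interval -0.64 to 0.61). At 6 h and at 24 h 0 of the 6 members passed in either direction (1.49% and 1.87% of all tested genes passed in limma), with 0 and 3 members at an unadjusted p under 0.05. At 24 h the largest differences were -0.44 ± 0.21 for Serpina3n, 0.41 ± 0.16 for Slpi and 0.32 ± 0.13 for Itih4, and that of Saa3 was 0.20 ± 0.30 (95% interval -0.43 to 0.82).

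At 48 h 2 of the 6 members were lower in OuJ than in HeJ mice, where 4.4% of all tested genes were. Saa3 differed by -1.52 ± 0.30 (2.87-fold lower in OuJ; 95% interval -2.15 to -0.90; limma adjusted p = 0.00383) and Hp by -0.54 ± 0.08 (1.45-fold lower in OuJ; limma adjusted p = 0.000272). In each of the 17 alternative settings both differences passed, at -1.73 to -1.40 for Saa3 and -0.63 to -0.51 for Hp. Lcn2 was lower on all OuJ arrays too (18.5% of all tested genes were), with a difference of -0.42 ± 0.19 that did not pass (limma adjusted p = 0.188). Serpina3n, at 0.06 ± 0.21, overlapped between the strains (95% interval -0.38 to 0.49).

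**Figure D3:**
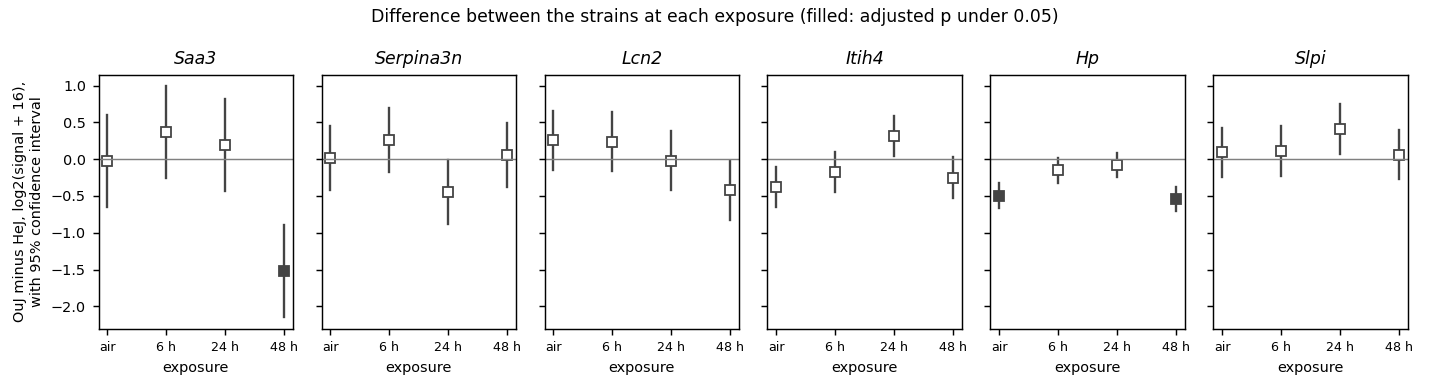
Difference between the strains (OuJ minus HeJ) in log2(signal + 16) for the 6 tested genes in air and after 6, 24 and 48 h of ozone, with 95% confidence intervals from the limma fit, filled where the adjusted p was under 0.05. Saa3 lies near 0 in air and at -1.52 at 48 h, and Hp is at -0.49 in air and -0.54 at 48 h.

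A difference between strains at 1 time does not show that the ozone response differed, which is a test of its own. The 48 h change of Saa3 differed between the strains by -1.50 ± 0.43 (OuJ minus HeJ), which did not pass (limma adjusted p = 0.289; unadjusted p = 0.00188). Its change from 24 to 48 h differed by -1.72 ± 0.43 (limma adjusted p = 0.147), and that of Hp by -0.46 ± 0.11 (limma adjusted p = 0.147). The 6 and 24 h changes of Saa3 differed by 0.39 ± 0.43 and 0.21 ± 0.43 (limma adjusted p = 0.956 and 0.942). For Hp the 6, 24 and 48 h changes differed by 0.34 ± 0.11, 0.42 ± 0.11 and -0.05 ± 0.11 (limma adjusted p = 0.76, 0.33 and 0.963). The Hp levels themselves differed by -0.49 ± 0.08 in air and -0.54 ± 0.08 at 48 h. For 0 of the 6 members did any of these strain differences of changes pass, against 0.0125%, 0.0125%, 0% and 0% of all tested genes at 6, 24 and 48 h and from 24 to 48 h. At an unadjusted p under 0.05 in limma there were 1, 2, 2 and 3 members.

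Marker lists of other lung cells were read beside these changes. Of all tested genes 5.67% rose in HeJ mice at 48 h. Of 10 tested macrophage markers 3 rose in HeJ mice at 48 h: the scavenger receptor Marco by 2.00 ± 0.42, the protease Ctsk by 1.45 ± 0.21 and the chitinase-like Chil3 by 0.80 ± 0.17 (limma adjusted p = 0.00324, 7.41e-05 and 0.00392), and Csf1r fell by 0.56 ± 0.11 (limma adjusted p = 0.00208). Marco differed by -2.61 ± 0.42 between OuJ and HeJ mice at 48 h (limma adjusted p = 0.000667). The summed macrophage signal was 41129 to 43635 in HeJ air and 37365 to 42988 in HeJ mice at 48 h, and 36683 to 41389 and 41549 to 45588 in OuJ mice. Lyz2, the brightest gene of this sum, is also on the alveolar type 2 list, so the sum does not stand for macrophages alone.

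Of 7 tested mesothelial markers, Krt8 rose at 24 and 48 h in both strains, by 1.35 ± 0.11 in HeJ mice at 48 h (limma adjusted p = 4.16e-08), and Krt19 rose in HeJ mice at 48 h by 0.50 ± 0.13 (limma adjusted p = 0.0132). Both keratins are also made by airway and alveolar epithelium. The defining genes Msln and Upk3b did not pass in HeJ mice at 48 h (0.51 ± 0.19 and 0.04 ± 0.24; limma adjusted p = 0.088 and 0.94). The summed mesothelial signal was 10782 to 11359 in HeJ air and 16650.4 to 18683 at 48 h, and 9541 to 10809 and 13564 to 14262 in OuJ mice. Of the adipose list, where Saa3 is also made, 3 of 7 genes on the array were tested in limma, with 0 passing at 24 or 48 h (0 at an unadjusted p under 0.05), and the sums lay between 1054 and 1864 in the air, 24 and 48 h groups.

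Lymphocyte markers were lower at 24 and 48 h, where the members rose, and endothelial markers mainly at 48 h. Of 8 tested lymphocyte markers 4 fell at 48 h in OuJ mice, where 4.21% of all tested genes fell. The median changes of the 8 at 24 and 48 h were -1.69 and -1.03 in OuJ mice and -1.15 and -1.19 in HeJ mice. The B cell receptor subunit Cd79a, for example, changed by -1.58 ± 0.23 at 48 h in HeJ mice (limma adjusted p = 9.86e-05). The summed lymphocyte signal was 4380.2 to 5838 in air and 1372 to 2509 at 24 and 48 h in OuJ mice, and 4332 to 4592 and 1632 to 2496 in HeJ mice. Of 9 tested endothelial markers 3 fell at 48 h in OuJ mice, against the same 4.21% of all tested genes. In HeJ mice at 24 h 0 of the 9 fell, with 4 lower and 3 higher at an unadjusted p under 0.05 in limma. Their sums in HeJ mice were 37188 to 38704 in air, 36604 to 37393 at 24 h and 28959 to 31740.2 at 48 h. In OuJ mice the sums were 31827 to 36246 in air, 29957 to 32354 at 24 h and 25745 to 28781 at 48 h. The 24 h sums thus overlapped air in both strains. The part of these cell types, and of those in the preceding lists, in the levels of Saa3 and the other members was not tested.

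A minority of the genes that signal to acute phase genes passed beside the members. Of 22 tested cytokines, receptors and transcription factors of this kind 4 rose at 24 h and 4 at 48 h in OuJ mice and 4 and 5 in HeJ mice, where 3.16%, 3.7%, 3.15% and 5.67% of all tested genes did. Lifr, the leukemia inhibitory factor receptor, and Il17ra, the interleukin 17 receptor, fell at 48 h in OuJ mice, with changes of -0.62 ± 0.15 and -0.45 ± 0.14 (limma adjusted p = 0.0101 and 0.0413), where 4.21% of all tested genes fell. Lifr no longer passed without OuJ 48 h replicate 3 (-0.54, limma adjusted p = 0.0704) or with the probe sets of a gene averaged (-0.28, adjusted p = 0.432). The OuJ 48 h change of Il17ra was not followed across settings. Its difference between OuJ and HeJ mice at 48 h was -0.46 ± 0.14, and -0.05 with averaged probe sets (limma adjusted p = 0.0371 and 0.839). In the other 3 comparisons with air at 24 and 48 h 0 fell in limma (5, 0 and 1 lower at an unadjusted p under 0.05). Socs3, the feedback inhibitor induced by STAT3, rose by 1.52 ± 0.29 and 1.31 ± 0.29 at 24 and 48 h in OuJ mice (limma adjusted p = 0.00205 and 0.00652) and by 1.64 ± 0.29 at both times in HeJ mice (limma adjusted p = 0.00142 and 0.00068). Without the arrays with a code suffix, which leaves 1 HeJ mouse at 24 h, its 24 h change there was 1.90 (limma adjusted p = 0.069). Osmr, the oncostatin M receptor, rose by 0.73 ± 0.14 and 0.68 ± 0.14 at 24 and 48 h in OuJ mice (limma adjusted p = 0.00169 and 0.00339). In HeJ mice Osmr rose by 0.55 ± 0.14 and 0.74 ± 0.14 (limma adjusted p = 0.0147 and 0.00118). Its HeJ call at 24 h was lost without HeJ air replicate 1 or HeJ 24 h replicate 1 or 3. Myd88, the adaptor of Toll-like and interleukin 1 receptors, rose in HeJ mice by 0.58 ± 0.12 and 0.65 ± 0.12 at 24 and 48 h (limma adjusted p = 0.00367 and 0.000902). The median of the 22 genes was 0.07, -0.07, 0.15 and 0.05 in these 4 comparisons.

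Of the C/EBP transcription factors, Cebpd and Cebpb passed in some comparisons and Cebpa in none of the 4 at 24 and 48 h, where it changed by -0.13 to -0.10. Cebpd rose by 0.94 ± 0.26 and 0.87 ± 0.26 at 24 and 48 h in OuJ mice (limma adjusted p = 0.0299 and 0.0357) and by 1.27 ± 0.26 and 0.89 ± 0.26 in HeJ mice (limma adjusted p = 0.00363 and 0.0241), and by 0.98 ± 0.18 at 6 h with the strains averaged (limma adjusted p = 0.0102, but 0.0611 with only the air and 6 h arrays fitted and 0.0714, at 0.98, without the arrays with a code suffix). Cebpb rose by 0.77 ± 0.17 and 0.70 ± 0.17 in OuJ mice (limma adjusted p = 0.00558 and 0.0104) and by 0.55 ± 0.17 in HeJ mice at 48 h (limma adjusted p = 0.0323), with 0.25 ± 0.17 in HeJ mice at 24 h (limma adjusted p = 0.406). Several of these calls rested on single arrays. In OuJ mice the Cebpb call was lost at 24 h without OuJ 24 h replicate 3 (0.57, limma adjusted p = 0.058) and at 48 h without OuJ air replicate 1 (0.64, adjusted p = 0.0513) or OuJ 48 h replicate 3 (0.59, adjusted p = 0.0755). In HeJ mice the call at 48 h was lost without either HeJ air replicate 1 or 2, or HeJ 48 h replicate 2 or 3 (0.41 to 0.55, limma adjusted p up to 0.168). The Cebpd calls were lost in OuJ mice without OuJ air replicate 1 or 2, OuJ 24 h replicate 2 or 3 and OuJ 48 h replicate 1 or 3, and in HeJ mice at 48 h without HeJ air replicate 1 or 2 or any HeJ 48 h array. Without the arrays with a code suffix the HeJ 24 h change of Cebpd was 1.29 (limma adjusted p = 0.217). Over all alternatives its changes ranged from 0.69 to 1.14 and 0.63 to 1.05 in OuJ mice and from 0.88 to 1.53 and 0.61 to 1.16 in HeJ mice at 24 and 48 h.

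**Figure D4:**
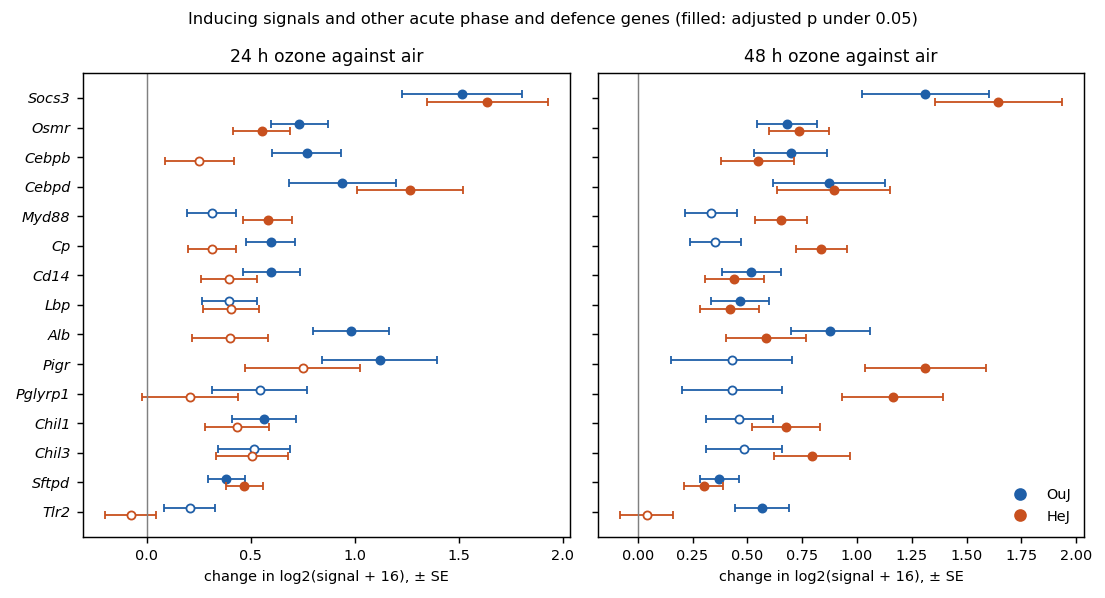
Changes at 24 and 48 h of ozone against air of 15 genes from the lists of inducing signals and of other acute phase and defence proteins, in log2(signal + 16) with bars of 1 SE from the limma fit, OuJ in blue and HeJ in orange, filled where the adjusted p was under 0.05. Socs3 has the largest changes, 1.52 and 1.31 in OuJ mice and 1.64 at both times in HeJ mice.

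Other plasma acute phase proteins were mostly too dim to test, 6 of 28 on the array. Of these 2 rose at 24 h and 2 at 48 h in OuJ mice and 0 and 3 in HeJ mice in limma (3 higher in each of the 4 comparisons, and 1 lower in HeJ mice at 48 h, at an unadjusted p under 0.05). The shares of all tested genes that rose were 3.16%, 3.7%, 3.15% and 5.67%. Ceruloplasmin (Cp), a copper carrying ferroxidase, rose by 0.60 ± 0.12 at 24 h in OuJ mice and by 0.84 ± 0.12 at 48 h in HeJ mice (limma adjusted p = 0.00232 and 5.82e-05), and differed between OuJ and HeJ mice at 48 h by -0.97 ± 0.12 (limma adjusted p = 2.31e-05). In air Cp already differed by -0.49 ± 0.12 (limma adjusted p = 0.0477), a call that was lost when any 1 of the 6 air arrays was left out (-0.50 to -0.47, limma adjusted p = 0.0796 to 0.137) or when the probe sets of a gene were averaged (-0.15, adjusted p = 0.597). Albumin (Alb), whose liver synthesis falls in the acute phase, rose by 0.98 ± 0.18 and 0.88 ± 0.18 at 24 and 48 h in OuJ mice (limma adjusted p = 0.00144 and 0.00377) and by 0.59 ± 0.18 at 48 h in HeJ mice (limma adjusted p = 0.0359). The HeJ call was lost without HeJ air replicate 3 (0.39, limma adjusted p = 0.202) and without any HeJ 48 h array (0.53 to 0.64, limma adjusted p = 0.0595 to 0.119). The median of the 6 plasma genes was 0.34 and 0.24 at 24 and 48 h in OuJ mice and 0.26 and 0.25 in HeJ mice.

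Among 14 tested secreted defence proteins of airway and granules 3 rose at 24 h and 1 at 48 h in OuJ mice and 1 and 5 in HeJ mice. Of all tested genes 3.16%, 3.7%, 3.15% and 5.67% rose in these comparisons. At 48 h in HeJ mice Pigr, which carries antibodies across epithelium, rose by 1.31 ± 0.28 and the peptidoglycan binding Pglyrp1 by 1.16 ± 0.23 (limma adjusted p = 0.00315 and 0.00193). Both were lower in OuJ than in HeJ mice at 48 h, like Saa3 and Hp, with differences of -1.69 ± 0.28 and -1.17 ± 0.23 (limma adjusted p = 0.000687 and 0.00346). For Pigr the differences in air and at 6 h were -0.81 ± 0.28 and -0.92 ± 0.28 and did not pass (limma adjusted p = 0.158 and 0.0999). The strain difference of its 48 h change, -0.88 ± 0.39, did not pass (limma adjusted p = 0.552). In OuJ mice Pigr rose at 24 h by 1.12 ± 0.28 (limma adjusted p = 0.015), a call lost without OuJ air replicate 1 or 2 or OuJ 24 h replicate 1. Of 12 tested receptors and targets of the members, Tlr2, a receptor for serum amyloid A, rose in OuJ mice at 48 h by 0.57 ± 0.12 (limma adjusted p = 0.0052; 0.46 and adjusted p = 0.0515 without OuJ 48 h replicate 3). Of all tested genes 3.7% rose there. Tlr2 was higher in OuJ than in HeJ mice at 6 h by 0.64 ± 0.12 (limma adjusted p = 0.00815; 0.0751 with only these groups fitted), at 24 h by 0.42 ± 0.12, which did not pass (limma adjusted p = 0.0787), and at 48 h by 0.66 ± 0.12 (limma adjusted p = 0.0021). From the same list, Slc22a17 and C1qa also differed between OuJ and HeJ mice at 48 h, by 0.58 ± 0.16 and -0.42 ± 0.12 (limma adjusted p = 0.0251 and 0.0342). These calls were lost in 4 and 6 of 17 alternative settings. Slc22a17 changed by -0.54 ± 0.16 from 24 to 48 h in HeJ mice (limma adjusted p = 0.0467), a call lost in 12 of 18 settings.

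Across the 24 arrays the tested gene whose level was most like that of Saa3 was Timp1, the metalloproteinase inhibitor, with a Pearson r of 0.94. Lcn2 (0.917), the neutrophil chemokine Cxcl5 (0.915) and Mboat1 (0.905) followed. For Hp these were Cp (0.887), Gpx2 (0.881), Ciapin1 (0.856) and Scd1 (0.832), and for Lcn2 they were Timp1 (0.927), Saa3, Mboat1 (0.904) and Sprr1a (0.873). For Serpina3n they were Gfpt2, Erlin1, Ctsh and Kcnk1 (0.909 to 0.895), for Itih4 Eef1e1, Timp1, Kpna2 and Lrg1 (0.916 to 0.892), and for Slpi Fkbp4, Hsd17b12, Hspe1 and Serpinh1 (0.773 to 0.749). The dim Orm1 and Ptx3 reached at most 0.703 (Fgd6) and 0.706 (Pgp).

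These correlations share the exposure groups of the 24 arrays. Within groups, after each group's mean was removed, Saa3 and Lcn2 correlated at 0.159 and Saa3 and Itih4 at -0.04, against 0.917 and 0.889 over all 24 arrays. Of the members, the pairs among Saa3, Lcn2, Serpina3n and Itih4 ranged from 0.831 to 0.917 over all arrays, while Saa3 and Hp stood at 0.66 and Saa3 and Slpi at 0.486.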

How the data were processed

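The deposited signal intensity values were made by the authors with GCOS 1.4, per the submitters' processing notes. No source used here gives its settings. The table holds 22690 probe sets on a linear scale, and the lowest trimmed mean of an array was 499.5. Per the labels, replicates are biological, from individual lungs.

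Probe sets with a signal above 218.3, the median of all values, on at least 3 of 24 arrays were kept. Of these, 11843 had 1 symbol, and the brightest per gene gave 8008 genes. With limma 3.58.1 in R 4.3.3 (values read with the data.table package, version 1.17.8), 1 mean per group was fitted to log2(signal + 16), with an intensity trend. P-values are two-sided and Benjamini-Hochberg adjusted over the 8008 genes. The script was tested on simulated data. Array number (3 per group) limits precision.

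The members and lists were chosen with earlier results of these data known. The comparisons of strains at 6, 24 and 48 h and of the strains' 24 to 48 h changes, and the alternatives for genes outside the 8 members, were chosen after seeing the data. Named were all 8 members, genes drawn from up to 5 passing per list and comparison by smallest p, per member the 4 most correlated genes, and the brightest markers. Not every gene that passed by this rule is described. Among those left out, Rbp4 changed by 0.69 ± 0.22 in HeJ mice at 48 h against air (limma adjusted p = 0.0388). Itih5 changed by -0.87 ± 0.24 in HeJ mice from 24 to 48 h (limma adjusted p = 0.0328). Each of these calls was lost in 7 alternative settings. Marco, Ctsk, Msln, Upk3b, Cebpa and Il17ra were named after their values were seen.

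The alternatives were quantile normalization, median centring, other pseudocounts (1 and 64), averaged probe sets, a filter on mean signal or none, no trend, only the groups compared, only 1 code series, a replicate block, no arrays with a code suffix, and each array left out.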

Additional observations from a re-analysis of the deposited data

Results flagged for a closer look

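Haptoglobin had changes of opposite sign between 24 and 48 h, neither of which passed (-0.26 in OuJ mice and 0.20 in HeJ mice, limma adjusted p = 0.323 and 0.145). All 3 HeJ mice were higher at 48 h than at 24 h, as were 12.3% of all tested genes in that comparison. All 3 OuJ mice were lower, and 7.08% of all tested genes had a lower change there than Hp. The difference of the changes (OuJ minus HeJ) was -0.46 on the log2 scale, which did not pass (limma adjusted p = 0.147).

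Orm1, which did not pass the filter on low signal, was higher on all 3 OuJ arrays at 6 h than in air, by 0.74 (adjusted p = 0.57 in the limma fit without a filter), and on all 3 HeJ arrays at 48 h, by 0.97 (limma adjusted p = 0.107). Of all tested genes 7.94% and 13.7% were higher on all arrays in these comparisons. The Orm1 signal stayed at or below 55.9 on every array.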

How the results depend on the processing

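Over 36 alternative settings, 1098 of 1144 followed changes of members kept their direction and side of the threshold, 31 no longer passed, 12 newly passed and 3 changed sign. Those 3 were strain differences of Saa3 changes that had not passed: at 6 h -0.0096 without HeJ 6 h replicate 1 (-0.0096 to 0.62 with 1 array left out), and at 24 h -0.0095 without HeJ 24 h replicate 3 (-0.0095 to 0.44 with 1 array left out) and -0.30 without the arrays whose code carries a suffix. The counts against air stayed at 5 for OuJ at 24 h. They ranged from 5 to 6 for OuJ at 48 h, from 4 to 5 for HeJ at 24 h and from 5 to 6 for HeJ at 48 h. For OuJ at 6 h (1 member) the count was 2 with median centring, 0 with no filter, 0 with only the groups compared and 0 with only the code series of the groups, and 0 to 2 with 1 array left out. For HeJ at 6 h (0 members) it was 0 to 1 with 1 array left out. With the strains averaged at 6 h (2 members) it was 0 without the suffix arrays, 0 with only the groups compared and 0 within the code series. For HeJ at 48 against 24 h (2 members) it was 0 without the suffix arrays, 1 with only the groups compared, 1 within the code series, and 1 to 2 with 1 array left out. For the strains in air (1 member) it was 0 with only the groups compared, and for the strain difference of the 48 against 24 h change (0 members) it was 1, Saa3 (limma adjusted p = 0.0476), with only the groups compared. The causes were not tested.

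With a replicate block the counts were unchanged, for example 5 members at 48 h in HeJ mice. The replicate numbers did not pair the arrays: in 0 of 28 pairs of groups did all same-numbered arrays correlate over 0.1. Of 944 changes of the other named genes compared, 767 held, 177 no longer passed and 0 changed sign. Cell type markers were not followed across settings. With 3 arrays per group small changes such as those of Slpi could not be settled, and Orm1 and Ptx3 were too dim to test.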
